A study of Capra hircus with 20 samples.

Results

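Insulin-like growth factors are secreted peptides that act through a receptor tyrosine kinase on the cell surface. IGF1, made in liver under growth hormone and also locally in the brain, and IGF2, a mainly fetal growth factor, both bind IGF1R, which signals through IRS adaptors and the PI3K and AKT kinases. IGF2R takes IGF2 into lysosomes and carries lysosomal enzymes, and secreted binding proteins hold the ligands and control how much reaches the receptors. In the hypothalamus the IGF system is known for its part in the control of growth hormone and of the onset of puberty.

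The genes described here are 9 genes of this system, chosen by name and not by a threshold on their values. Earlier results of these data were known when they were chosen. They are the ligands IGF1 and IGF2, the receptors IGF1R and IGF2R, and the binding proteins IGFBP2, IGFBP3, IGFBP4, IGFBP5 and IGFBP6. All 9 symbols were found by gene identifier among the 21071 genes with a value. The study followed the hypothalamus of female Jining grey goats, raised on the same farm, through postnatal sexual development. Its 4 stages were D1, M2, M4 and M6, at 1, 60, 120 and 180 days of age, with 5 goats per stage and 1 strand-specific library depleted of rRNA for each goat. No treatment and no difference of genotype between stages is described, so age is the comparison stated. The goats were slaughtered on the same day, so the date of birth differs between stages and cannot be told apart from age. Levels are FPKM, a fragment count scaled by exon length and by the mapped fragments of the library, which allows levels to be compared between genes. In pieces of tissue, fewer cells of a type and less RNA per cell cannot be told apart.

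The libraries varied in which part of the brain they resembled, and this varied within stages. The 10 hypothalamic markers searched summed to between 2.53 and 918 FPKM per library. AVP, the vasopressin gene, reached 10 FPKM in 5 libraries and was under 1 FPKM in 7, and NKX2-1, a transcription factor of the ventral hypothalamus, was under 1 FPKM in 13. The library labelled M4-1 had 23.7 FPKM of NEUROD6, a gene of cortical excitatory neurons, and the next highest library had 1.26. The 6 markers of cortex and thalamus summed to 95.6 FPKM in M4-2 and 77.2 in M4-1, against a median of 22.3 over the 20 libraries. Markers of leptomeninges and fibroblasts, connective tissue cells of the brain's coverings, summed to 368 FPKM in D1-5 and 330 in M2-3, against a median of 60.5 over the 20 libraries. A single gene, KLHDC1, took 23.9% of all FPKM in M2-3 and 9.83% in M6-3. The FPKM of all genes summed to between 260199 in M4-3 and 377479 in M6-3, so these sums are not fixed. The effect of KLHDC1 on the FPKM of the other genes was not tested.

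Differences between stages were tested with limma on log2(FPKM + 0.1) for the 16771 genes that reached 0.1 FPKM in 5 libraries or more, and all 9 IGF genes were among them. A gene was called when its adjusted p was under 0.05 and its absolute log2 fold change was at least 1. None of the 9 IGF genes was called by limma in any of the 6 comparisons between stages, in the comparison of the mean of M2, M4 and M6 with D1, or in the test for any difference among the 4 stages. Calls were rare over all genes too. They were 0% of the genes tested in M2 vs. D1, M4 vs. M2, M6 vs. M4 and M6 vs. M2. M4 vs. D1 had 0.0537%, M6 vs. D1 had 0.00596%, and the shares were 0.0596% for the later stages vs. D1 and 0.00596% in the test over the 4 stages.

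At an unadjusted p under 0.05, 1 IGF gene passed in M2 vs. D1, where 15.6% of all genes did, and 1 in M4 vs. M2, where 8.68% did. None passed in M6 vs. M4, where 6.87% of all genes did. The numbers were 1 in M4 vs. D1 against 8.71% of all genes, 2 in M6 vs. D1 against 7.41%, and 1 in M6 vs. M2 against 6.14%. For the later stages vs. D1 they were 2 against 11.7%, and for any difference among stages 1 against 10.4%. All of these passes belonged to IGF1R, the receptor, and IGFBP3, a binding protein. The IGF1R differences were positive against D1, and the IGFBP3 differences were negative for M4 and M6 against D1 and M2.

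**Figure D1:**
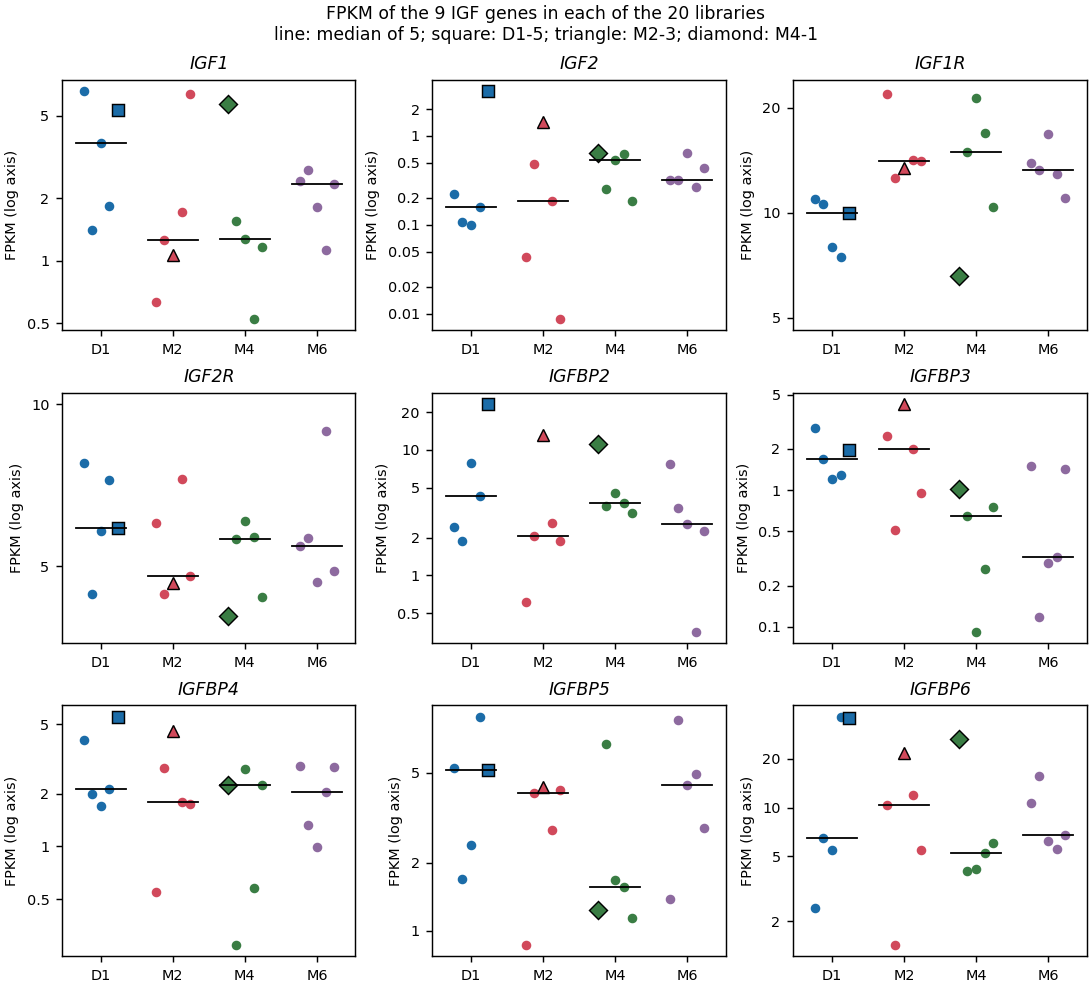
FPKM of each of the 9 IGF genes (vertical log axes) in the 5 libraries of each stage, with a line at the median of each stage and separate symbols for D1-5, M2-3 and M4-1. IGF1R in M2 (12.6 to 21.9 FPKM) lies wholly above D1 (7.47 to 10.96 FPKM), while IGF2 and IGFBP2 have single high libraries in D1-5 and M2-3.

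The ligands had low levels. IGF1 (gene identifier 100860838) lies on chromosome 5 of assembly ARS1.2, from 64862983 to 64943172. Its FPKM in D1-1 to D1-5 was 6.55, 1.41, 3.70, 1.83 and 5.31, and in M2-1 to M2-5 it was 0.631, 1.25, 1.06, 1.71 and 6.39. In M4-1 to M4-5 it was 5.66, 1.55, 1.27, 0.525 and 1.17, and in M6-1 to M6-5 it was 2.42, 2.74, 1.81, 1.12 and 2.34. The highest goats of M2 and M4, at 6.39 and 5.66 FPKM, were within the D1 range, and every stage overlapped with D1, although 3 of the 5 D1 libraries lay above all M6 libraries.

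The log2 fold change of IGF1 in the later stages vs. D1 was -0.90 (SE 0.47, adjusted p = 0.465 by limma), with a 95% confidence interval from -1.89 to 0.09. M4 vs. D1 gave -1.06 (SE 0.58, adjusted p = 0.641). Without M4-1, the library with the cortical genes, that difference was -1.52 and its adjusted p by limma was 0.352. With the mapping rate in the fit, M4 vs. D1 gave -0.46 (adjusted p = 0.883), and the later stages vs. D1 gave -0.22 (adjusted p = 0.999 by limma). IGF1 at M2 was 2.21 ± 2.37 FPKM (SD, n = 5) with M2-5 and 1.17 ± 0.447 FPKM (SD, n = 4) without it.

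IGF2 (100861277) lies on chromosome 29 from 50430375 to 50438275 and overlaps the microRNA gene MIR483. It had the lowest mean of the 9 genes. Its FPKM was 0.221, 0.107, 0.0984, 0.158 and 3.17 in D1-1 to D1-5 and 0.0436, 0.483, 1.43, 0.186 and 0.00871 in M2-1 to M2-5. M4 goats had 0.643, 0.254, 0.535, 0.627 and 0.187, and in M6 it was 0.322, 0.317, 0.643, 0.267 and 0.431. D1-5 stood far above the next D1 goat and above all M6 libraries, so D1 and M6 overlapped. The next D1 goat, at 0.221 FPKM, was below the lowest M6 goat, at 0.267 FPKM.

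The D1 mean of IGF2 therefore rested on 1 goat, at 0.751 ± 1.35 FPKM (SD, n = 5) with D1-5 and 0.146 ± 0.0563 FPKM (SD, n = 4) without it. For the later stages vs. D1 the log2 fold change was 0.09 (SE 0.59, adjusted p = 0.964 by limma). It was 0.84 (adjusted p = 0.593) without D1-5 and -0.09 (adjusted p = 0.961) without M2-3, so no direction can be given. M4 vs. M2 had the largest difference between stages, 0.63 (SE 0.73, adjusted p = 0.810), which was 1.18 without M2-3 and 0.089 with a pseudocount of 1 FPKM. M4 vs. D1 gave 0.33 (adjusted p = 0.943) with D1-5, 1.08 (adjusted p = 0.783) without it, and -0.07 with the mapping rate in the fit. IGF1 was above IGF2 in 18 of the 20 libraries.

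The receptors were the most even of the 9 genes between goats of one age. Within stages, the SD of log2(FPKM + 0.1) was 0.40 for IGF1R and 0.31 for IGF2R, against a median of 0.57 over all genes tested. IGF1R (100861165) spans 304928 bp of chromosome 21, from 7038506 to 7343433. Its FPKM in D1-1 to D1-5 was 10.96, 10.6, 7.97, 7.47 and 9.97. In M2 it was 21.9, 12.6, 13.4, 14.1 and 14.1, in M4 it was 6.58, 14.9, 21.3, 16.9 and 10.4, and in M6 it was 13.8, 13.2, 16.8, 12.9 and 11.03. All M2 and all M6 libraries were above all D1 libraries, M6 by a narrow margin, while M4-1 lay below all D1 libraries and M4-5 within their range.

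Stages without overlap were seen for 3.82% of all genes in M2 vs. D1 and for 2.84% in M6 vs. D1, and IGF1R was the single IGF gene among them in both. M2 vs. D1 gave a log2 fold change of 0.68 for IGF1R (SE 0.25, adjusted p = 0.227 by limma), from 9.39 ± 1.58 to 15.2 ± 3.78 FPKM (SD, n = 5 each). Its 95% confidence interval ran from 0.15 to 1.201. M4 vs. D1 gave 0.48 (adjusted p = 0.614) and M6 vs. D1 gave 0.53 (adjusted p = 0.674), and the later stages vs. D1 gave 0.56 (SE 0.21, adjusted p = 0.301).

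The IGF1R difference was still positive without the highest and the lowest library. Leaving out M2-1 gave 0.54 (adjusted p = 0.573 by limma) in M2 vs. D1, and leaving out M4-1 gave 0.72 in M4 vs. D1 (SE 0.22, adjusted p = 0.261). It was much smaller when each library's mapping rate entered the fit as a covariate, at 0.12 (SE 0.26, adjusted p = 0.951) in M2 vs. D1, 0.09 for M4, 0.14 for M6 and 0.12 (SE 0.21, adjusted p = 0.999) for the later stages. Mapping rates differed between D1 and the later stages in the study's quality table, and their part in the difference cannot be told apart from that of age.

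IGF1R also ran with cell markers over the 20 libraries. The 6 neuronal markers, SNAP25 and SYT1 among them, were above 0 in every library. They summed to between 781 and 1394 FPKM in D1, 213 and 1162 in M2, 787 and 2646 in M4, and 69.7 and 866 in M6, and Pearson's r of their mean log2 level with that of IGF1R was -0.56 (Spearman's rho -0.47, n = 20). Without the farthest libraries on the marker scale, M2-1 and M6-3, r was -0.49. For the 8 microglial markers r was 0.51, and 0.10 without M2-1 and M4-1. The libraries share their tissue composition and the FPKM scale, and the part of either cell type in the IGF1R values was not tested.

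IGF2R (100860744) lies on chromosome 9 from 83501097 to 83604791. Its FPKM was 7.78, 4.43, 5.82, 7.24 and 5.88 in D1-1 to D1-5 and 6.01, 4.45, 4.665, 7.27 and 4.80 in M2-1 to M2-5. In M4 it was 4.04, 5.62, 6.07, 5.68 and 4.39, and in M6 it was 5.46, 5.64, 4.67, 8.92 and 4.899. The stages overlapped throughout, and 1 goat, M6-4, stood above the rest.

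The widest IGF2R difference was M4 vs. D1, with a log2 fold change of -0.26 (SE 0.22, adjusted p = 0.803 by limma). For the later stages vs. D1 it was -0.18, with a 95% confidence interval from -0.55 to 0.20, the narrowest interval among the 9 genes. Changes of the size that a call requires lie outside it. IGF1R exceeded IGF2R in all 20 libraries, by a ratio of FPKM from 1.03 in D1-4 to 3.64 in M2-1. The median ratio was 1.41 in D1 goats and 2.87, 2.65 and 2.35 in M2, M4 and M6 goats, and the D1 ratios, from 1.03 to 2.39, overlapped with those of each later stage.

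**Figure D2:**
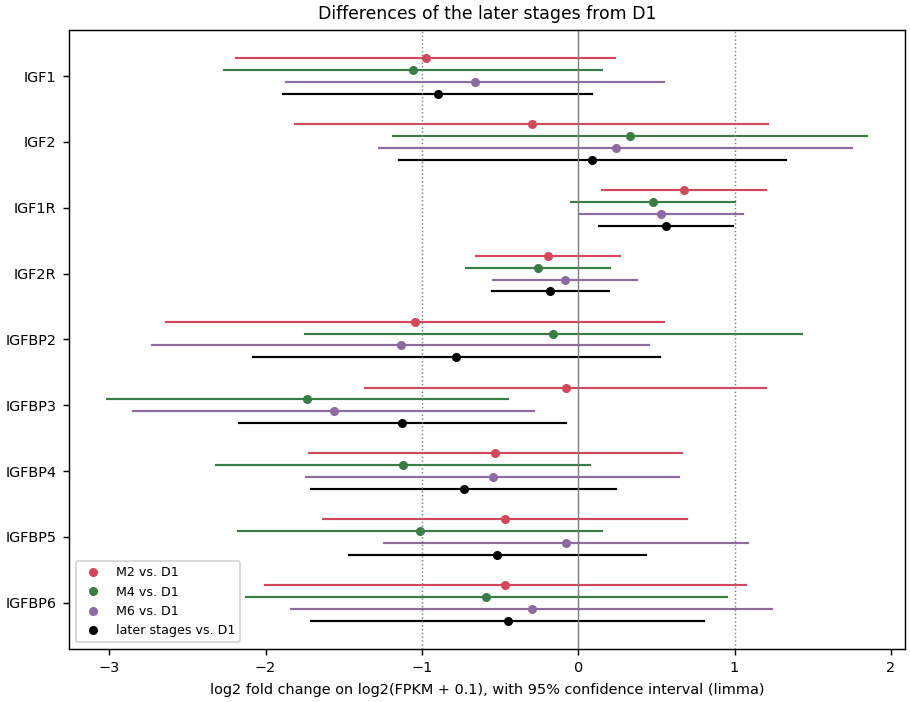
Log2 fold changes of the 9 IGF genes in M2, M4 and M6 vs. D1 and in the mean of the later stages vs. D1, with 95% confidence intervals from limma and dotted lines at the fold change that a call requires. The points of IGF1R lie between 0.48 and 0.68 and those of IGF2R between -0.26 and -0.09, with short intervals, and the points of IGFBP3 at M4 and M6 are -1.73 and -1.57, with long ones.

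The 5 binding proteins together outweighed the ligands in all 20 libraries. Their summed FPKM was between 2.23 and 26.6 times that of IGF1 and IGF2, with a median of 8.63. IGFBP6 was the highest of the 5 in 15 libraries, IGFBP5 in 3 and IGFBP2 in 2. The median sum was 18.6 FPKM in D1 goats and 14.9, 13.3 and 16.2 FPKM in M2, M4 and M6 goats, and the highest was 71.6 FPKM in a D1 goat.

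**Figure D3:**
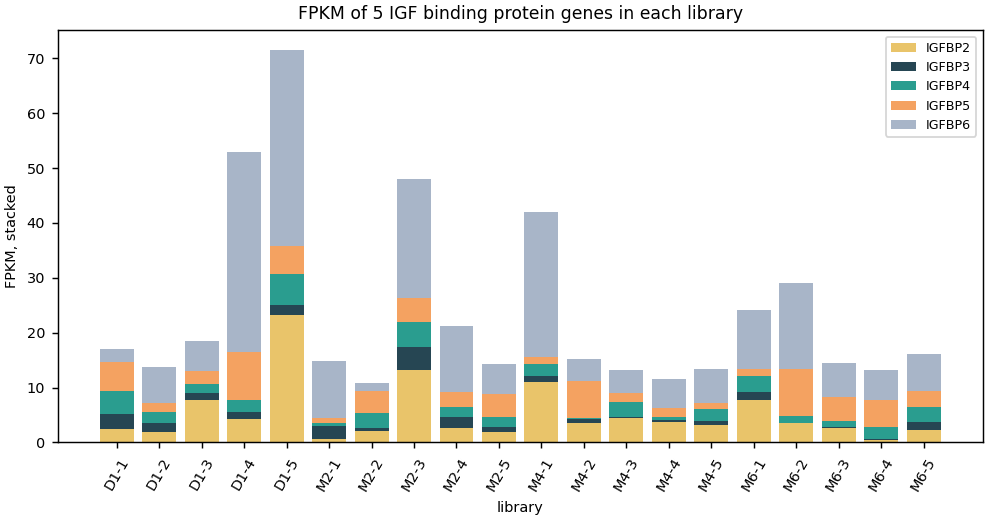
Stacked FPKM of IGFBP2, IGFBP3, IGFBP4, IGFBP5 and IGFBP6 (vertical axis, from 0) in each of the 20 libraries. IGFBP6 is the largest piece in 15 libraries, and the total reaches 71.6 FPKM in D1-5.

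IGFBP2, a carrier abundant in cerebrospinal fluid and made by leptomeninges, choroid plexus and glia, had the largest within-stage SD of the 9 genes on the log2 scale. It lies on chromosome 2 from 31149536 to 31178739 (102175172). The FPKM was 2.41, 1.89, 7.82, 4.32 and 23.2 in D1-1 to D1-5 and 0.608, 2.06, 13.1, 2.62 and 1.88 in M2-1 to M2-5. In M4 the values were 11.04, 3.54, 4.504, 3.80 and 3.12, and in M6 it was 7.66, 3.47, 2.58, 0.355 and 2.24. Single goats, D1-5, M2-3 and M4-1, were far above the rest of their stage, and all stages overlapped.

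The within-stage SD of IGFBP2 was 1.33 on the log2 scale, higher than that of 92.9% of the genes tested. Later stages vs. D1 gave a log2 fold change of -0.78 (SE 0.62, adjusted p = 0.646 by limma), and -0.24 (adjusted p = 0.909) without D1-5. M6 vs. D1 gave the largest difference, -1.14 (SE 0.76, adjusted p = 0.753), and -0.60 (adjusted p = 0.841) without D1-5. M4 vs. D1 was -0.16, and 0.38 without D1-5.

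IGFBP3, the main carrier of IGF1 in blood, had the largest log2 differences between stages. It lies on chromosome 4 from 44058187 to 44065021 (102174541), with IGFBP1 8074 bp away. Its FPKM in D1-1 to D1-5 was 2.86, 1.70, 1.21, 1.29 and 1.96, and in M2-1 to M2-5 it was 2.47, 0.513, 4.27, 2.00 and 0.951. In M4 it was 1.03, 0.642, 0.0918, 0.263 and 0.753, and in M6 it was 1.51, 0.117, 0.292, 0.324 and 1.42. All M4 libraries were below all D1 libraries, while M2 overlapped with both and M6-1 and M6-5 lay within the D1 range.

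Such a separation was seen for 1.93% of all genes in M4 vs. D1. For IGFBP3 the log2 fold change there was -1.73 (SE 0.62, adjusted p = 0.435 by limma), from 1.81 ± 0.666 to 0.555 ± 0.377 FPKM (SD, n = 5 each). The 95% confidence interval ran from -3.01 to -0.45. M4 vs. M2 gave -1.65 (adjusted p = 0.509), M6 vs. D1 -1.57 (adjusted p = 0.617) and M6 vs. M2 -1.49 (adjusted p = 0.746), while M2 vs. D1 gave -0.08 (adjusted p = 0.966).

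The levels of IGFBP3 are low, and with a pseudocount of 1 FPKM the difference in M4 vs. D1 was -0.86 (adjusted p = 0.444 by limma) and that in M6 vs. D1 was -0.75. M2 vs. D1 was 0.37 with the mapping rate in the fit, so no direction can be given for it. In that fit no IGF gene had an unadjusted p under 0.05 by limma in M2, M4, M6 or the later stages vs. D1. The smallest adjusted p of an IGF gene there was 0.616 in M4 vs. D1 and 0.9999 in M6 vs. D1. In M4 vs. M2 and in M6 vs. M2, 1 IGF gene passed in each. Stages held 43.7% of the variance of IGFBP3, more than in 94.6% of the genes tested, and the test for any difference among stages gave an adjusted p of 0.400. No IGF gene had stages without overlap in M4 vs. M2, M6 vs. M4 or M6 vs. M2, with shares over all genes of 1.09%, 0.775% and 0.757%.

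Vascular and connective tissue markers also differed between these libraries. The 7 endothelial markers summed to between 41.5 and 75.9 FPKM in D1, 35.3 and 133 in M2, 30.4 and 50.3 in M4, and 38.7 and 71.3 in M6, with none at 0. Their mean log2 level had r = 0.44 with IGFBP3 (rho 0.45, n = 20), and 0.19 without M2-1 and M2-3. For the 8 markers of pericytes and smooth muscle, cells of vessel walls, r with IGFBP3 was 0.49 (rho 0.54, n = 20), and 0.32 without D1-5 and M2-3. The markers of leptomeninges and fibroblasts had r = 0.60 with IGFBP3 (rho 0.57, n = 20), and 0.48 without D1-5 and M2-3. At M4 they summed to between 27.0 and 79.8 FPKM, and at D1 to between 47.9 and 368. The part of these cells in the IGFBP3 values was not tested.

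IGFBP4 and IGFBP5 are carriers that proteases cut to release the ligand. IGFBP4 (100860812) lies on chromosome 19 from 40320361 to 40330549. Its FPKM was 4.08, 1.98, 1.69, 2.12 and 5.50 in D1 and 0.552, 2.81, 4.56, 1.79 and 1.74 in M2, in the order of the goats. M4 goats had 2.23, 0.275, 2.77, 0.578 and 2.23, and in M6 it was 2.87, 1.32, 0.991, 2.05 and 2.85. The stages overlapped, with the highest values in D1-5 and M2-3. M4 vs. D1 gave a log2 fold change of -1.12 (SE 0.57, adjusted p = 0.604 by limma), and -0.67 without M4-2, its lowest library. The later stages vs. D1 gave -0.73 (adjusted p = 0.553), and -0.33 with the mapping rate in the fit.

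IGFBP5 (100860950) is the neighbour of IGFBP2 on chromosome 2, from 31117838 to 31140752, with 8783 bp between the genes. Its FPKM was 5.24, 1.70, 2.39, 8.80 and 5.15 in D1 and 0.871, 4.08, 4.33, 2.79 and 4.17 in M2. In M4 it was 1.24, 6.70, 1.68, 1.57 and 1.14, and in M6 it was 1.39, 8.49, 4.40, 4.94 and 2.86. M4-2 lay within the D1 range, so the stages overlapped. The other M4 libraries were lower than all D1 libraries, M4-3 (1.682 FPKM) only just below D1-2 (1.697 FPKM). M4 vs. D1 gave -1.01 (SE 0.56, adjusted p = 0.643 by limma), and -1.45 without M4-2. Despite their positions the neighbours did not run together, with r = 0.04 between IGFBP5 and IGFBP2 (rho 0.01, n = 20).

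IGFBP6, a carrier that prefers IGF2, had the highest mean of the 5 binding proteins, and lies on chromosome 5 from 26609942 to 26613572 (102180462). The FPKM was 2.39, 6.51, 5.46, 36.3 and 35.8 in D1 and 10.3, 1.43, 21.7, 12.04 and 5.51 in M2. M4 goats had 26.5, 4.04, 4.19, 5.26 and 6.09, and in M6 it was 10.7, 15.7, 6.26, 5.58 and 6.79. D1-4, D1-5, M4-1 and M2-3 were the highest libraries, and the other goats of the stages overlapped.

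Stages held 3.48% of the variance of IGFBP6, and its within-stage SD was 1.298 on the log2 scale. Later stages vs. D1 gave a log2 fold change of -0.45 (SE 0.60, adjusted p = 0.802 by limma). Without D1-4 it was 0.0026 (adjusted p = 1.00), and without D1-5 it was -0.0031 (adjusted p = 0.999). M4 vs. D1 gave -0.59 (adjusted p = 0.889), -1.07 (adjusted p = 0.624) without M4-1, -0.14 (adjusted p = 0.988) without D1-5 and -0.13 without D1-4.

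By mean FPKM over the 20 libraries the order of the 9 genes was IGF1R at 13.0, IGFBP6 at 11.4, IGF2R at 5.69, IGFBP2 at 5.11, IGFBP5 at 3.70, IGF1 at 2.52, IGFBP4 at 2.25, IGFBP3 at 1.28 and IGF2 at 0.507. No pair of neighbours in this order differed, on the log2 scale, by more than the SD of their difference over the libraries. The nearest were IGF1 and IGFBP4, with IGF1 the higher in 8 of 20 libraries, and the clearest were IGFBP4 and IGFBP3, with IGFBP4 the higher in 17 of 20.

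Read as a group against D1, 8 of the 9 genes had a negative log2 fold change in M2, 7 in M4 and 7 in M6, and IGF1R was positive in all 3. The median of the 9 was -0.47 for M2, -0.59 for M4 and -0.30 for M6. Over all genes tested the medians were -0.07, -0.07 and -0.05, and 44.8%, 43.7% and 44.9% of the genes were positive. Without D1-5 the negative genes were 7, 6 and 5 of 9 and the medians -0.21, -0.27 and -0.10, and without D1-4 the medians were -0.18, -0.22 and -0.03. The markers of leptomeninges and fibroblasts were negative beside them, 7 of 8 in M4 vs. D1 with a median of -1.06, and their part was not tested. These 3 comparisons share the D1 libraries. Between the later stages, M4 vs. M2 had a median of -0.12, M6 vs. M4 of 0.17 and M6 vs. M2 of 0.10.

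The high values of IGF2 and IGFBP2 stood in the libraries with the most markers of the brain's coverings. Of the 9 markers listed for leptomeninges and fibroblasts 8 were matched, and none was at 0 in any library. DCN, a matrix proteoglycan of fibroblasts, was 141 FPKM in D1-5 and 115 in M2-3, with a median of 22.1. The summed level was between 47.9 and 368 FPKM in D1, 55.0 and 330 in M2, 27.0 and 79.8 in M4, and 38.4 and 127 in M6.

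The mean log2 level of these markers had r = 0.56 with IGF2 (rho 0.28, n = 20), which was -0.01 without D1-5 and M2-3. With IGFBP2, r was 0.56 (rho 0.29) and 0.20 without these libraries. The relation therefore rests on D1-5 and M2-3 for both genes. M4-1, the third high IGFBP2 library, summed to 79.8 FPKM. The part of these cells in the values of IGF2 and IGFBP2 was not tested.

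Choroid plexus, the tissue that makes cerebrospinal fluid, is a known source of IGF2, and its 7 markers were all matched. They summed to between 2.35 and 15.96 FPKM in D1, 2.48 and 31.5 in M2, 4.46 and 15.7 in M4, and 4.00 and 15.8 in M6. TTR, a hallmark transcript of it, was at most 23.0 FPKM, in M2-3, while CLIC6 was at most 0.104 FPKM with 9 libraries at 0, and FOLR1 was at 0 in 13. The 5 markers with enough signal had r = 0.76 with IGF2 (rho 0.61, n = 20), and 0.54 without D1-5 and M2-3, and this relation was not tested further.

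**Figure D4:**
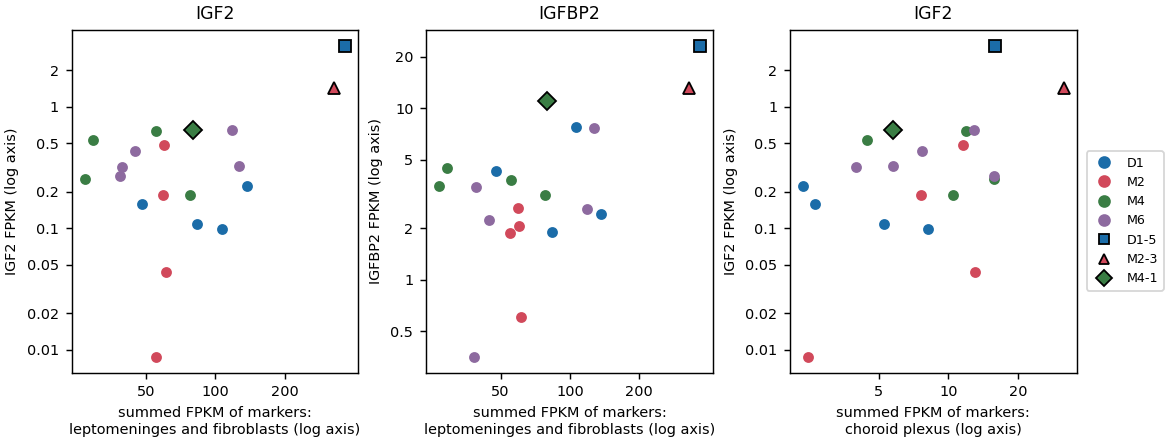
FPKM of IGF2 and IGFBP2 (vertical log axes) against the summed FPKM of marker genes of leptomeninges and fibroblasts, and of IGF2 against choroid plexus markers (horizontal log axes), with 1 point per library coloured by stage. D1-5 and M2-3 stand apart at 368 and 330 FPKM of the leptomeningeal markers, and the other libraries show little trend there.

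Between the 9 genes themselves the libraries showed little shared pattern. Over the 36 pairs the median r was 0.087. The highest were IGF2 with IGFBP2, at 0.63 (rho 0.51, n = 20) and 0.34 without D1-5 and M2-3, and IGFBP2 with IGFBP6, at 0.51 (rho 0.39) and 0.41 without D1-5 and M6-4. The lowest was IGF1 with its receptor IGF1R, at -0.55 (rho -0.47), which was -0.67 without D1-1 and M2-5 and -0.44 between deviations from the stage means. All pairs come from the same 20 libraries and share the FPKM scale of each.

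**Figure D5:**
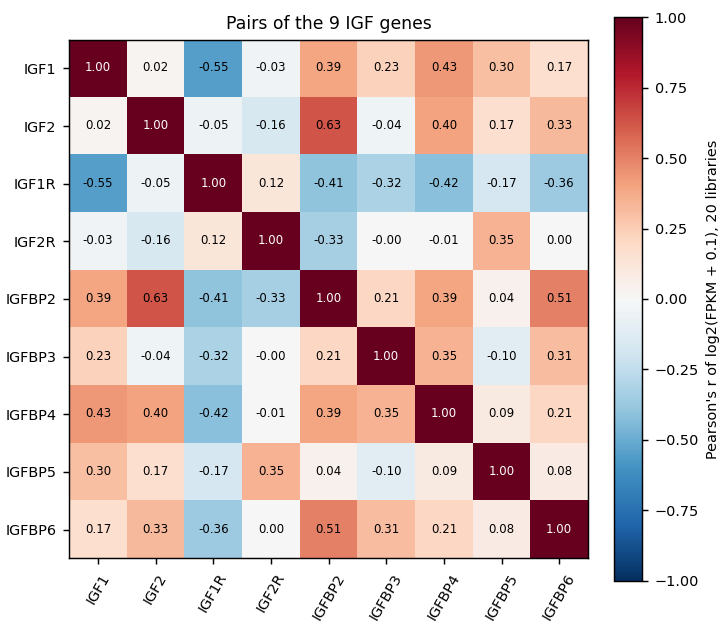
Pearson's r of log2(FPKM + 0.1) over 20 libraries for each of the 36 pairs of the 9 IGF genes, from blue for negative to red for positive values. The values run from -0.55 for IGF1 with IGF1R to 0.63 for IGF2 with IGFBP2, with a median of 0.087.

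Over all genes tested, those most like an IGF gene differed from gene to gene. For IGF1R the nearest were NPAS3, a neural transcription factor, at r = 0.92 (rho 0.84, n = 20), MDM4, a regulator of p53, at 0.92, KANSL1 at 0.91, C15H11orf65 at 0.90 and TBC1D22B at 0.90. These were the closest likenesses for any of the 9 genes, and without D1-4 and M4-1 they ranged from 0.86 to 0.89. For IGF2R the nearest were RGAG1 at 0.77, FZD5, a Wnt receptor, at 0.76, DOCK11 at 0.75, GTSE1 at 0.74 and DLX2 at 0.74.

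For IGF2 the nearest were SLC5A5, the iodide transporter, at r = 0.84 (rho 0.70, n = 20), STRA6, a receptor for retinol-binding protein, at 0.80, OSR1 at 0.80, MFAP5, a microfibril protein, at 0.80 and LOC108637766 at 0.78. Without D1-5 and M2-3 these were between 0.51 and 0.66. LOC108637766 was also among the nearest for IGFBP2, at 0.78, beside PVALB at 0.81, PERP at 0.77, MPZL2 at 0.76 and LOC102183178 at 0.70. For IGF1 they were CALU at 0.80, ABT1 at 0.76, EPHA3 at 0.73 and PPIE at 0.72.

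For IGFBP6 the nearest were EFNB1 at r = 0.84 (rho 0.76, n = 20), KCNJ13, a potassium channel of the choroid plexus, at 0.82, CRABP2, which binds retinoic acid in cells, at 0.81 and OAF at 0.77. The 5 choroid plexus markers with enough signal, KCNJ13 among them, together had r = 0.24 with IGFBP6 (rho 0.16), and -0.19 without D1-5 and M2-3. For IGFBP3 the nearest genes were DUSP15 at 0.81, SEC61A1 at 0.80, C1QTNF5 at 0.78, CABP7 at 0.78 and THBS1, a matrix protein of vessels, at 0.76. IGFBP4 ran nearest to GAS2L3, C11H2orf40, PTRH2, ARHGAP28 and LOC106501822, from 0.72 to 0.74, and IGFBP5 to SLC25A43, SNRPD3, TIRAP, FIBP and KCNK2, from 0.70 to 0.77.

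The rest of the IGF system was read from a list of 15 further genes, of which 13 were tested. None was called in any comparison, and the most with an unadjusted p under 0.05 were 5 of 13, in M6 vs. M2, where 6.14% of all genes passed. Of these, 2 were higher and 3 lower at M6. IGFALS, the acid-labile subunit that joins IGFBP3 and IGF in blood, was 0.490, 0.209, 0.404, 0.568 and 0.574 FPKM in D1 and 1.17, 2.95, 1.61, 0.746 and 1.27 FPKM in M6. All M6 libraries were above all D1 libraries, with a log2 fold change of 1.51 (SE 0.37, adjusted p = 0.271 by limma). With library quality weights it was 1.60 (adjusted p = 0.0320), and with a pseudocount of 1 FPKM it was 0.77 (adjusted p = 0.182), under the size that a call requires.

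The RNA-binding proteins IGF2BP2 and IGF2BP3, which bind IGF2 mRNA, had their highest means at M2. IGF2BP3 was 12.01 ± 6.72 FPKM at M2 and 3.98 ± 2.00 FPKM at M6 (SD, n = 5 each), with a log2 fold change in M6 vs. M2 of -1.57 (SE 0.38, adjusted p = 0.746 by limma). IGF2BP2 gave -1.44 (SE 0.45, adjusted p = 0.746). HTRA1, a protease that cuts binding proteins, gave 0.50 (SE 0.18, adjusted p = 0.746). IGFBP7, a related protein with weak affinity for IGF, was between 13.4 and 44.2 FPKM, with a mean of 29.3 above that of each of the 9 genes, and IGFBP1 was at 0 in 11 libraries.

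Downstream of the receptor, all 28 listed genes were tested and none was called. In M2 vs. D1, 4 had an unadjusted p under 0.05, all of them higher at M2, with a list median of 0.01. That is 14.3% of the list against 15.6% of all genes. IRS1, the adaptor that binds the activated receptor, was 6.98, 10.6, 5.80, 6.71 and 7.27 FPKM in D1 and 26.6, 19.7, 13.2, 10.2 and 16.1 FPKM in M2. D1-2 and M2-4 were the only libraries that overlapped, and the log2 fold change was 1.14 (SE 0.34, adjusted p = 0.164 by limma). It was 1.08 (adjusted p = 0.0495) with library quality weights. With the mapping rate in the fit it was 0.86, under the size that a call requires. The highest adjusted p by limma over the settings was 0.793.

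TSC1, an inhibitor of mTOR signalling, gave 0.54 (SE 0.18, adjusted p = 0.187 by limma) in M2 vs. D1. In M6 vs. M4, GSK3B, a kinase inhibited by AKT, gave -0.82 (SE 0.29, adjusted p = 0.700), and GRB14, an adaptor that inhibits the insulin receptor, gave -1.79 (SE 0.59, adjusted p = 0.700). With library quality weights these were -0.53 and -1.14. With D1 against the mean of the later stages, 5 of the 28 passed at an unadjusted p under 0.05, of which 4 were higher later and 1 was lower. That is 17.9% of the list against 11.7% of all genes. The largest share was in M4 vs. M2, where 6 of the 28 passed, 4 higher and 2 lower at M4. This was 21.4% of the list against 8.68% of all genes.

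Of the 4 genes tested that act below the growth hormone receptor, none was called. CISH, a feedback inhibitor induced by this pathway, was 1.38, 1.24, 1.54, 0.295 and 0.773 FPKM in D1 and 0.211, 0.615, 0, 0.139 and 0.10 FPKM in M6. D1-4 lay within the M6 range and the other D1 goats above it, and the log2 fold change was -2.01 (SE 0.67, adjusted p = 0.503 by limma), or -0.73 with a pseudocount of 1 FPKM. The largest differences of the kinase JAK2 (0.49 in M4 vs. M2, adjusted p = 0.563), STAT5B (0.50 in M6 vs. D1, adjusted p = 0.711) and the inhibitor SOCS2 (-0.79 in M6 vs. M4, adjusted p = 0.810) were smaller. SOCS2 ran from -1.35 without M4-3 to -0.32 without M4-2, JAK2 was 0.27 with library quality weights and 0.33 without M2-3, and STAT5B was 0.31 without M6-4.

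IGF2 and IGF2R belong to the genes imprinted in mouse, and 10 further genes of this kind were read beside them. None was called, and all 10 had a negative log2 fold change in M4 vs. D1, where 4 had an unadjusted p under 0.05 and 8.71% of all genes did. In that comparison all 10 hypothalamic markers were negative too, with a median of -1.05, as were all 7 markers of mature oligodendrocytes, with a median of -1.63, and the part of these cells was not tested. The median of the imprinted genes there was -0.65, against -0.07 over all genes, and -0.52 in M6 vs. D1 and -0.24 in M2 vs. D1, comparisons that share the D1 libraries. In M6 vs. D1 all 10 imprinted genes were negative again, while 9 of the 10 hypothalamic markers were positive, with a median of 0.85. The oligodendrocyte markers were negative for 6 of 7 in M6 vs. D1, with a median of -0.68. In M4 vs. D1 IGF2R had -0.26 (adjusted p = 0.803 by limma) and IGF2 had 0.33, or 1.08 without D1-5.

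The 4 imprinted genes with an unadjusted p under 0.05 in M4 vs. D1 were SGCE, NNAT, CDKN1C and NDN. NNAT, a small membrane protein of neurons and endocrine cells, was 48.3, 35.4, 17.0, 49.0 and 60.6 FPKM in D1 and 28.9, 4.35, 3.41, 14.0 and 22.6 FPKM in M4. The stages overlapped through D1-3, and the log2 fold change was -1.85 (SE 0.70, adjusted p = 0.473 by limma). CDKN1C, a cell cycle inhibitor, gave -1.46 (adjusted p = 0.467), SGCE -0.67 (adjusted p = 0.305) and NDN -0.64 (adjusted p = 0.496). With the mapping rate in the fit, NNAT gave -0.73 and NDN gave -0.32.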

How the data were processed

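After trimming with fastp, the authors aligned reads to the goat genome ARS1 with HISAT2 2.0.5, assembled transcripts with StringTie 1.3.3b and deposited 1 FPKM value per gene and library. These FPKM values are not whole multiples of a step, so the reads behind them were not recovered, depth per value is unknown, and precision rests on the spread between goats. Counts and lncRNA transcripts were not analysed here. Gene identifiers were matched to symbols and positions with the RefSeq annotation of ARS1.2, which named 20610 of the 21071 genes.

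The model was limma 3.58.1 (R 4.3.3) on log2(FPKM + 0.1), 1 fit for all 20 libraries with stage as the factor and a trend of variance on the mean, after a filter of 0.1 FPKM in 5 libraries. The test script was tested on simulated data. Adjusted p values are Benjamini-Hochberg values over the 16771 genes tested, per comparison. Other values were calculated with Python 3.11.15, pandas 2.3.3 and numpy 2.4.6 and drawn with matplotlib 3.10.9. Named were the 9 IGF genes, the 4 genes of each of 4 pathway lists with the smallest p over the stages, and the 5 genes most like each IGF gene by Pearson's r, of which some are not reported here. IGFBP7, IGFBP1, KLHDC1 and the marker genes were named for their values. The genes and lists were chosen with earlier results of these data known. STAT5A, SLC22A6 and PRL, which are in the lists, were not used here.

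The alternatives were another pseudocount, other filters, a fit of the 10 libraries compared, 2 scalings, no variance trend, library quality weights, the replicate block, the mapping rate of the study's quality table as a covariate, the adjusted p alone, and leaving out libraries.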

Additional observations from a re-analysis of the deposited data

Results flagged for a closer look

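In 10 of the 36 groups of 5 libraries (9 genes in 4 stages), 1 library stood apart from the other 4 by Dixon's 95% criterion on FPKM. Chance gives about 5% of groups only where values are normally distributed. The share over all genes was not taken and the groups share the same 20 libraries. The number of groups can therefore not be read as an excess for the IGF genes. Each library that stood apart was the highest of its stage. M4-1 stood apart for IGF1 at 5.66 FPKM, where the next M4 library had 1.55, for IGFBP2 at 11.04 FPKM (next 4.504) and for IGFBP6 at 26.5 FPKM (next 6.09). D1-5 did so for IGF2 at 3.17 FPKM (next 0.221) and for IGFBP2 at 23.2 FPKM (next 7.82), and M2-3 for IGFBP2 at 13.1 FPKM (next 2.62). The other 4 were IGF1 in M2-5 at 6.39 FPKM (next 1.71), IGF1R in M2-1 at 21.9 FPKM (next 14.1), IGF2R in M6-4 at 8.92 FPKM (next 5.64) and IGFBP5 in M4-2 at 6.70 FPKM (next 1.68). M4-1, M4-2, M2-3 and D1-5 are the libraries whose markers of cortex and thalamus or of connective tissue are given above.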

How the results depend on the processing

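The number of IGF genes called by limma was 0 in every comparison under all 32 settings beside the one reported, with the replicate block included, and also by adjusted p alone with the reported variances. The smallest adjusted p of an IGF gene was 0.0408, for IGF1R in the later stages vs. D1 with library quality weights, at a log2 fold change of 0.51. Of the 34 fold changes followed, 2 changed direction. For IGF2 in the later stages vs. D1 it was -0.0916 with a pseudocount of 1 FPKM, -0.065 with quality weights, -0.37 with the mapping rate as a covariate, -0.15 without M2-3 and M6-3 together, and from -0.17 to 0.84 leaving out 1 library. For IGFBP6 in the same comparison it was from -0.96 to 0.0026 leaving out 1 library. Of the 34, 2 met the rule for a call with library quality weights and under no other setting. They were IGFALS in M6 vs. D1 and IRS1 in M2 vs. D1, where these weights gave 95 and 148 calls over all genes. Among differences from D1 outside the 34, M2 vs. D1 changed direction for IGF2, IGFBP3, IGFBP5 and IGFBP6. M4 vs. D1 did so for IGF2 and IGFBP2, and M6 vs. D1 for IGF2, IGFBP5 and IGFBP6. With a filter on a mean of 1 FPKM, IGF2, IGFALS and CISH were not tested, and a fit of 10 libraries gave no value for the later stages vs. D1 or for any difference among stages.

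Genes called over all genes in M4 vs. D1 were 9, between 0 and 65 under the other settings and from 3 to 33 leaving out 1 library, and for the later stages vs. D1 they were 10, between 0 and 223 and from 1 to 34. The most came with quality weights and without D1-4, which also gave 148 and 10 in M2 vs. D1, 95 and 20 in M6 vs. D1, and 170 and 17 for any difference among stages. In M4 vs. M2 and M6 vs. M2 the counts were at most 3 and 1, and in M6 vs. M4 they were 0 throughout.

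With the replicate number as a block, 7 genes were called in M4 vs. D1 and 13 in the later stages vs. D1. The replicate block is not a pairing by design, since the correlation of deviations of goats with the same number ran from -0.246 to 0.430, with 7 of 30 above 0.1, and 3 of 20 libraries were most like a library of their own number. Read counts per gene are unknown, so low values such as those of IGF2 and IGFBP3 carry a counting error that could not be given. Many libraries had little signal of hypothalamic markers, and the region sampled cannot be told apart from differences between goats.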

Other observations

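Some IGF genes ran with markers of ependymal cells, which line the ventricles, or with markers of the hypothalamus. IGF2R had Pearson's r = 0.66 with 4 ependymal markers (Spearman's rho 0.49, n = 20), and 0.40 without D1-4 and M6-4, the libraries highest in them. IGFBP5 had r = 0.52 with the same markers (rho 0.53), and 0.39 without these libraries. For 2 markers of tanycytes, also cells of the ventricle lining, r was 0.18 with IGF2R and 0.17 with IGFBP5. IGFBP2 had r = -0.54 with the 10 hypothalamic markers (rho -0.49), and -0.38 without M6-4 and M6-5. With the same 10 markers IGF2R had r = 0.49 (rho 0.40), and 0.48 without M6-4 and M6-5. These values describe libraries that share tissue composition and the FPKM scale, and no test was made of them.

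Astrocyte and oligodendrocyte markers stood at higher levels than the IGF genes. The 7 astrocyte markers summed to between 1142 and 4353 FPKM, and r with the IGF genes ran from -0.44 for IGFBP6 to 0.39 for IGF1R. The 7 markers of mature oligodendrocytes summed to between 161 and 4765 FPKM, with r from -0.29 for IGFBP6 to 0.31 for IGFBP4. IGFBP3 had r = 0.79 with LHB and CGA, subunits of pituitary hormones (rho 0.72, n = 20), and 0.71 without M2-3 and M6-2, although the 5 pituitary genes matched summed to at most 2.86 FPKM in any library and CGA was at 0 in 10.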
